A study of Rattus norvegicus with 6 samples.

Results

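The 8 genes described here are the complement genes C1r, C1s, C3, Cfb, Cfd, Serping1, Cd55 and Cd59 of rat dermal fibroblasts, the collagen-making cells of the skin. They were chosen by name, and all gene probes of the array whose RefSeq accession belongs to one of these symbols were used. All 8 of 8 genes were found, out of 15168 symbols on the array, with 9 probes on 18 spots per array. Cd55 had 2 probes, the single C1r probe was printed 10 times, and Cd59 was matched through its older name, since its current symbol in rat is Cd59b. The cells carried a lentivirus with an shRNA, a short hairpin that silences a transcript, aimed at lnc-URIDS, a long non-coding RNA (shRNA group, n = 3) or a control lentivirus (n = 3). Both groups received the virus at a multiplicity of infection of 10 and 2 µg/mL puromycin, a selection drug, for 48 h, so the controls carry a virus and the drug too. One-colour Agilent arrays, 1 for each sample, measured total RNA. No probe named here carries the name lnc-URIDS, so the loss of the target was not checked. Whether replicates were grown as separate cultures is not given in the labels, and p-values then rest on a spread among samples that may be technical.

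Complement is a cascade of proteases and binding proteins that tags particles for uptake and can punch holes in membranes. It starts in the classical pathway with C1q and its proteases C1r and C1s, in the lectin pathway with sugar-binding proteins, or in the alternative pathway with factor B (Cfb) and factor D (Cfd), and all routes meet at the cleavage of C3. The inhibitor encoded by Serping1 blocks C1r and C1s, while Cd55 and Cd59 sit on the cell's own membrane, where Cd55 speeds the decay of the C3 convertases and Cd59 blocks the membrane attack complex. The liver makes most of the circulating complement, and fibroblasts are among the other cells known to make C3, C1r, C1s, factor B and the C1 inhibitor, in amounts that interferon and inflammatory cytokines raise.

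By the scanner software's own flag, 20901 to 22492 of the 30367 gene probes exceeded background clearly ("well above background") on an array, and no gene spot was saturated. Of the 12 fibroblast markers on the array, 10 were well above background on all 6 arrays, with Col1a1 at 6.87 to 7.05 on the log2 scale relative to the array's 75th percentile, but Dcn and Lum, proteoglycan genes that usually mark dermal fibroblasts, were not above it on any array. Summed on a linear scale in multiples of the 75th percentile, the fibroblast markers lay between 461.2 and 501.2 in controls and between 469.6 and 481.8 in the shRNA group, a sum carried by Col1a1, Col1a2 and Col3a1. None of the 10 passed limma's adjusted test. In the shRNA group 8 had lower means, and 47.2% of all features had a higher mean. The other 2, Col1a2 (0.064) and Col3a1 (0.044), had higher means. Lower on every shRNA array were 4 (11.9% of all features were), namely Pdgfra (-0.51), Prrx1 (-0.70), Vim (-0.11) and S100a4 (-0.25). The part of these markers in the values below was not tested. The same sum was 1.06 to 1.22 and 1.03 to 1.099 for 11 leukocyte markers, of which 4 were not well above background on any array, and 0.0989 to 0.137 and 0.0923 to 0.111 for 7 adipocyte markers, of which 5 were not. The endothelial sum was 0.183 to 0.230 and 0.200 to 0.234 (3 of 7 markers on no array), and the keratinocyte sum 2.41 to 2.66 and 2.62 to 2.67 (3 of 6 on no array). The keratinocyte sum was carried by Trp63 (log2 1.22 to 1.37). Krt5 and Krt14 lay far lower, at -5.77 to -5.07 and -4.19 to -3.36, and Krt1, Cdh1 and Epcam were the markers on no array. Well above background on all 6 arrays were 6 of the 11 leukocyte and 3 of the 6 keratinocyte markers. For endothelial and adipocyte markers it was 2 of 7 and 1 of 7. A signal from bulk RNA cannot tell fewer cells of a type from less RNA per cell. By a scan identifier in the file headers, controls 1 and 2 and shRNA replicates 2 and 3 were taken to share slide 1. Control 3 and shRNA replicate 1 were taken to share slide 2.

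Promoter sequences are shown for C3 and C1r, the gene at which the pathways meet and the classical pathway gene that was lower on all shRNA arrays, because they are the ones of the RefSeq promoter table that carry a searched motif. That table (build GRCr8) held 4 of the 8 genes, namely C3, C1r, Cfd and Cd55, and the 250 bases before the annotated start were read, 5′ to 3′ on the gene's strand. C3 is at chr9:2201340-2201589 on the minus strand, and C1r is at chr4:159098763-159099012 on the plus strand, where C1s is the next gene in the annotation. Capitals mark matches to a C/EBP element (TTGCNNAA, searched on both strands).
C3: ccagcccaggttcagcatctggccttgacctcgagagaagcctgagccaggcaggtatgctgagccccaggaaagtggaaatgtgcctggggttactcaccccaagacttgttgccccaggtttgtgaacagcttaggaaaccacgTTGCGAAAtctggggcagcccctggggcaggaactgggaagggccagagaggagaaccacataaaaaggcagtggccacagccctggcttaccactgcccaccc
C1r: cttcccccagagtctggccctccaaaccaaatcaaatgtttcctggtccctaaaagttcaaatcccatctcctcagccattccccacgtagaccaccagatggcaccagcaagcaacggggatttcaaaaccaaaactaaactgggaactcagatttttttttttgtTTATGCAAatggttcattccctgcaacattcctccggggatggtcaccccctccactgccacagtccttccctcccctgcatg
Counted from the start site, the match covers positions -104 to -97 in C3, on the gene's strand, and -83 to -76 in C1r, on the opposite strand. A C/EBP element was present in 2 of the 4 promoters and in 9.22% of all 33469 promoters of this length. The gamma-activated site (TTCNNNGAA), the interferon response element, the TATA box (TATAAA) and the kappa B element matched none of the 4, against 7.67%, 3.41%, 12.9% and 3.54% of all promoters. These are matches of letters and say nothing of binding.

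The comparison of shRNA with control arrays asks whether the expression of these genes differed between the groups. None of the 8 genes passed the test, which was limma's moderated test across 18464 features (1 probe per gene or transcript) with Benjamini-Hochberg adjustment at 0.05. No other feature passed either (0% of features), so the count over the 8 genes equals the background. At an unadjusted p under 0.05, 1 of the genes had a lower mean (C1r) and 1 a higher mean (Cfb), which is 2 of 8 beside 14.1% of all features. The groups of arrays did not overlap in 3 of the 8 genes (C1r lower, Cfb and Cd59 higher), beside 21.8% of all features (9.93% higher and 11.9% lower). The mean of the shRNA group was higher in 4 genes and lower in 4, with a median log2 fold change (shRNA minus control) of -0.16 beside -0.0070 over all features. Without control 2, 2 of the 8 means were higher, with a median of -0.27 beside -0.027 over all features. With a normexp background correction 7 were higher, with a median of 0.20 beside 0.054 over all features. With array quality weights, which leaned on control 3 and shRNA replicate 3, C1r, C1s, Cfb, Cfd and Cd59 passed along with 4333 of the 18464 features. Those calls depend on the order of the features. In reverse order 2113 features passed, and of the 8 genes only C1r and Cfb. All values below are the processed signal in scanner units for single arrays, and log2 differences of signals scaled to the 75th percentile, shRNA minus control, with the moderated standard error after ±, for comparisons (3 arrays per group).

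**Figure D1:**
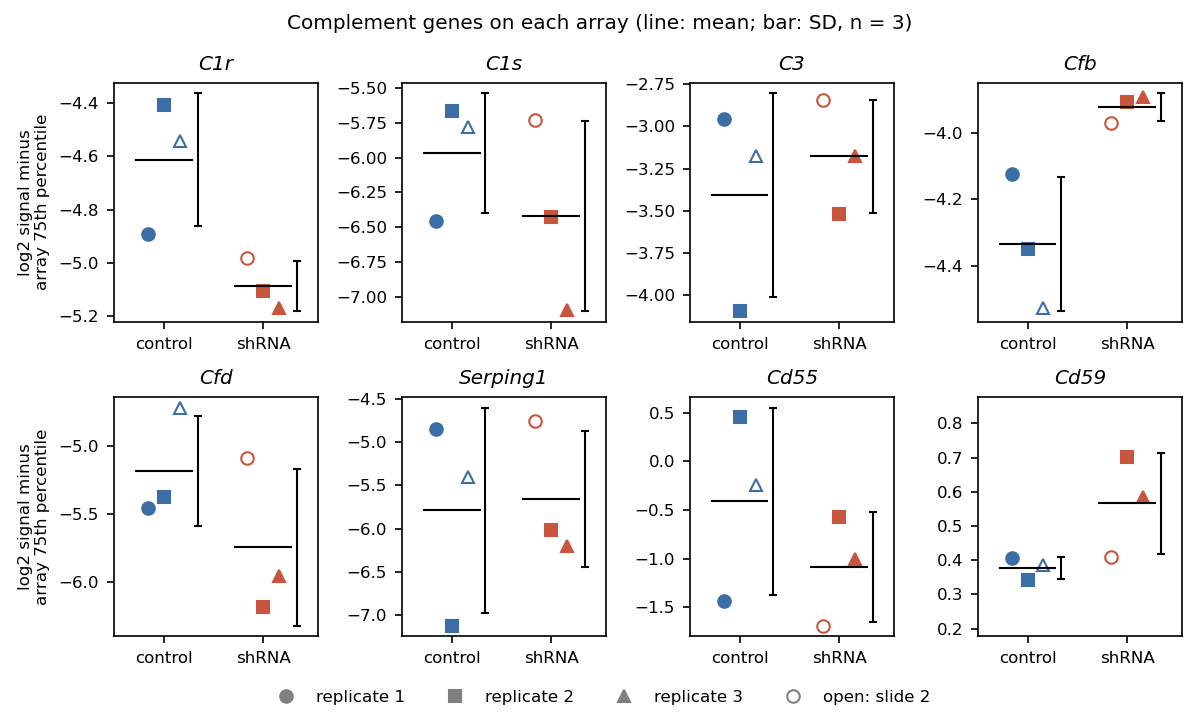
Log2 signal minus the array's 75th percentile (vertical axis, a separate range for each gene) on each of the 3 control and 3 shRNA arrays, with the mean as a line and the SD as a bar, marker shape for the replicate number and open markers for slide 2. The groups do not overlap for C1r, Cfb and Cd59, and the replicates of a group lie widest apart for Serping1 and Cd55.

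Among the proteases that start the classical pathway, C1r had a lower signal on every shRNA array than on any control array. Its mean over the spots of an array was 50.4, 76.0 and 67.9 units in controls 1, 2 and 3, and 47.8, 44.1 and 41.9 units in shRNA replicates 1, 2 and 3. The shRNA arrays were close to each other, and control 1 lay nearer to them than to the other 2 controls. On the log2 scale the difference was -0.47 ± 0.13, a fold of 0.721 with a 95% confidence interval of 0.574 to 0.906 (limma adjusted p = 0.233). Slide 1 alone gave -0.49 and slide 2 alone -0.44, and with slide as a block the adjusted p was 0.254.

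The 10 spots of the C1r probe show how far the signal of one probe varied within an array. The kept spots spanned 47.6 to 53.9 units on control 1, 67.4 to 96.9 on control 2 and 63.9 to 75.7 on control 3. They spanned 43.2 to 52.9 units on shRNA replicate 1, 39.8 to 49.3 on replicate 2 and 38.6 to 47.1 on replicate 3. The SD among the spots of an array was 0.053 to 0.14 on the log2 scale, against 0.25 between the means of the control arrays and 0.095 between those of the shRNA arrays. All kept spots of controls 2 and 3 were thus brighter than all kept spots of the shRNA arrays, whereas those of control 1 overlapped those of shRNA replicates 1 and 2. The normexp background correction started from the median spot and background signals, with an offset of 50, in place of the processed signal. With it the C1r difference was 0.044, and -0.18 with quantile normalization added. The cause of this change was not tested.

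**Figure D2:**
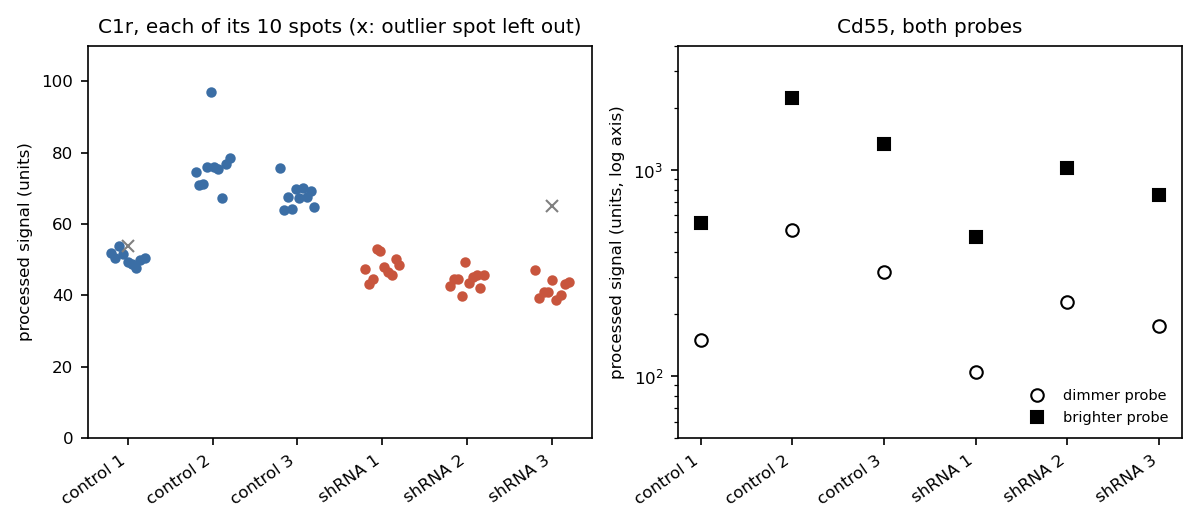
Left, processed signal (linear axis from 0) of each C1r spot on the 6 arrays, with outlier spots that were left out as grey crosses. Right, processed signal (log axis) of both Cd55 probes on the same arrays: both are lowest on replicate 1 and highest on replicate 2 of each group.

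C1s, the protease that C1r activates, gave 17.0, 31.8 and 28.8 units in controls and 28.5, 17.6 and 11.02 units in the shRNA group, and the last of these was not well above background. The groups overlapped, since shRNA replicate 1 was about as bright as controls 2 and 3. Between the groups the log2 fold change was -0.45 ± 0.39 (limma adjusted p = 0.687), with a confidence interval from 0.374-fold to 1.42-fold. The direction was that of C1r on slide 1 (-0.70), while on slide 2 it was 0.047, and with the normexp background it was 0.24. Without shRNA replicate 3 it was -0.11, and without shRNA replicate 1 it was -0.80.

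C3, the protein at which the pathways meet, varied more within the groups than between them. Its signal was 193, 94.5 and 175 units in controls and 211, 133 and 167 units in the shRNA group. Control 2 was the lowest array, the controls spanned a range of 2.20-fold, and the groups overlapped. The log2 fold change was 0.23 ± 0.33 (limma adjusted p = 0.844), a fold of 1.17 with a confidence interval from 0.661 to 2.08. Without control 2 it was -0.11.

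Factor B (Cfb), the protease subunit of the alternative C3 convertase, had a higher signal on every shRNA array than on any control array. It was 85.6, 79.0 and 68.6 units in controls and 96.4, 101 and 102 units in the shRNA group. The 3 shRNA arrays lay within a range of 1.06-fold, and the controls within 1.32-fold. The log2 ratio was 0.41 ± 0.11, a fold of 1.33 with a confidence interval of 1.11 to 1.59 (limma adjusted p = 0.217). It was 0.34 within slide 1 and 0.56 within slide 2, had an adjusted p of 0.223 with slide as a block, and was 0.26 with normexp and quantile normalization.

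Factor D (Cfd), the protease that cleaves factor B and is known as adipsin for its high level in fat cells, had 34.02, 38.9 and 60.2 units in controls. In the shRNA group it had 44.5, 20.9 and 24.3 units. The groups overlapped, because shRNA replicate 1, which shared a slide with the brightest control, was brighter than controls 1 and 2. On the log2 scale the difference was -0.56 ± 0.34 (limma adjusted p = 0.535), a fold of 0.679 with a confidence interval from 0.378 to 1.22. With slide as a block the SE was 0.095 and the limma adjusted p was 0.223. The difference was -0.65 on slide 1 and -0.37 on slide 2, and it was 0.12 with the normexp background. Leaving out 1 array moved it to between -0.89 (without shRNA replicate 1) and -0.33 (without control 3). Of the 7 adipocyte markers with a probe, Adipoq, Fabp4, Cidec, Lep and Lpl were not well above background on any array, while Pparg and Retn were tested, with -0.32 ± 0.17 and 0.096 ± 0.27. The part of such cells in the Cfd values was not tested.

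Serping1, which encodes the C1 inhibitor, showed the widest spread among replicates of the 8 genes. It had 52.0, 11.6 and 37.4 units in controls, where control 2 was not well above background, and 56.1, 23.5 and 20.6 units in the shRNA group. The highest array of a group exceeded the lowest 4.85-fold in controls and 2.72-fold in the shRNA group. The log2 fold change was 0.14 ± 0.69 (limma adjusted p = 0.969), with a confidence interval of 0.339-fold to 3.56-fold, so a difference of 2-fold in either direction lay within it. Without control 2 it was -0.53, and without shRNA replicate 1 it was -0.32.

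Cd55, the decay-accelerating factor of the cell membrane, also differed more between replicates than between groups. Its brighter probe gave 551, 2215 and 1332 units in controls and 469, 1023 and 753 units in the shRNA group. The second probe gave 150, 509 and 317 units in controls and 104, 228 and 174 units in the shRNA group. Both probes ordered the 6 arrays in the same way within each group, with replicate 1 lowest and replicate 2 highest, and the groups overlapped on both. The log2 fold changes were -0.68 ± 0.54 (limma adjusted p = 0.649) and -0.80 ± 0.49, the latter with an adjusted p of 0.517 in the same test over all 20776 probes. The confidence interval of the brighter probe ran from 0.249-fold to 1.57-fold. The difference was -0.29 on slide 1 and -1.44 on slide 2, and without control 2 it was -0.24.

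Cd59, which blocks the assembly of the membrane attack complex, gave nearly equal signals within the controls. It had 1979, 2044 and 2066 units in controls and 2011, 2468 and 2266 units in the shRNA group. On the scaled values the groups did not overlap, but shRNA replicate 1 (0.411) and control 1 (0.405) differed by less than the spread of the controls (SD 0.032, n = 3). The difference in log2 means was 0.19 ± 0.081 (limma adjusted p = 0.376), a fold of 1.14 with a confidence interval from 0.992 to 1.31. It was 0.27 within slide 1 and 0.026 within slide 2.

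The members differed in how much they varied between replicate arrays. The pooled SD within groups was 0.79 for Cd55 on the log2 scale, larger than in 99.95% of the 2099 features within 0.5 log2 units of its mean signal. For Serping1 it was 1.01 (larger than in 98.4% of features of like signal) and for C3 it was 0.49 (97.8%). For C1s and Cfd it was 0.57 and 0.50 (90.1% and 89.3%), while Cd59, C1r and Cfb had 0.11, 0.19 and 0.15 (79.4%, 52.8% and 48.7%). The arrays did not share one order in these genes: control 2 was the highest control for Cd55, C1r and C1s and the lowest for C3, Serping1 and Cd59. Over the 6 arrays, as a description of values that share arrays and scaling, C3 ran with Serping1 (Pearson r = 0.924) and against Cd55 (r = -0.902), and C1r ran with C1s (r = 0.755) and against Cfb (r = -0.931). Control 2 was the lowest control in 3 of the 8 genes and in 48.8% of all features, and shRNA replicate 1 was the highest of its group in 5 of 8 and in 51.1%.

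**Figure D3:**
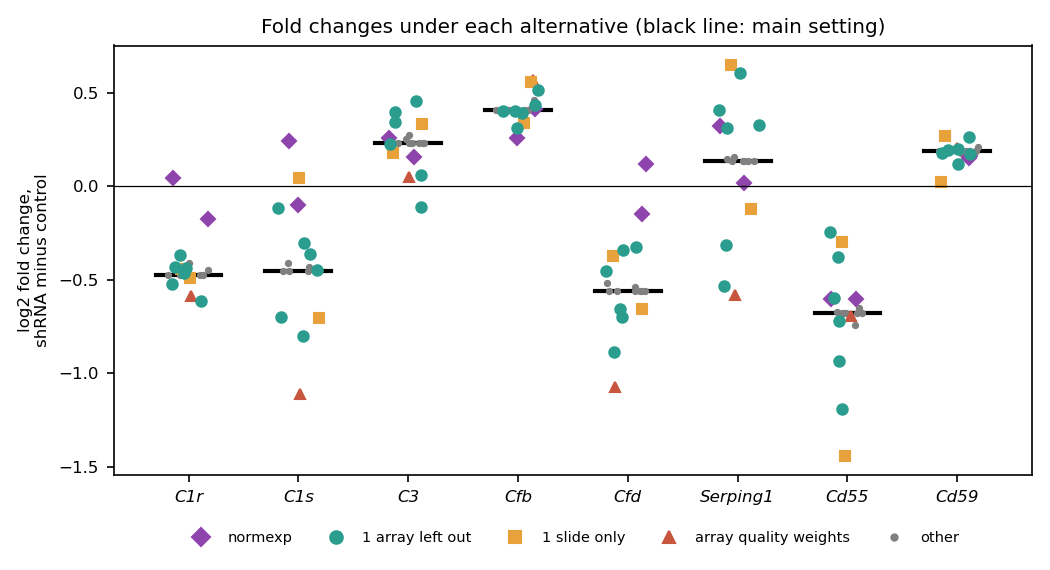
Log2 fold change, shRNA minus control (vertical axis), of each gene in the main setting (black line) and under each processing alternative (1 marker each, with a random sideways shift). Cfb, Cd59 and Cd55 keep their sign in all of the alternatives that were run, while C1r, C1s, C3, Cfd and Serping1 lie on both sides of 0.

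For each member, the named gene whose scaled values followed it most closely over the 6 arrays was found among 10736 genes. These were Cdc7 for C3 (Pearson r = 0.993), Ctif for C1s (0.995), Eapp for C1r (0.997) and Rad1 for Cfb (0.991). They were Pdk1 for Cfd (0.991), Pitx1 for Serping1 (0.996), Smcp for Cd55 (0.998) and Tmem141 for Cd59 (0.997). With 6 arrays such values are common: between 54 (C1s) and 588 genes (C1r) had an r above 0.9 with a member. The changes were also unequal in size, since Eapp had a log2 fold change of -0.043 beside -0.47 for C1r and Smcp one of -0.10 beside -0.68 for Cd55.

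The rest of the complement system was described with a list of 51 genes by textbook role, the 8 members included, of which 45 had a matched probe and 26 were tested. None of the 26 passed in either direction (0% of all features passed), 11 had higher and 15 lower means in the shRNA group, and the median log2 fold change was -0.081 beside -0.0070 over all features (0.19 beside 0.054 with the normexp background). At an unadjusted p under 0.05 there were 3, beside 14.1% of all features: C1r, Cfb and Cr1l.

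**Figure D4:**
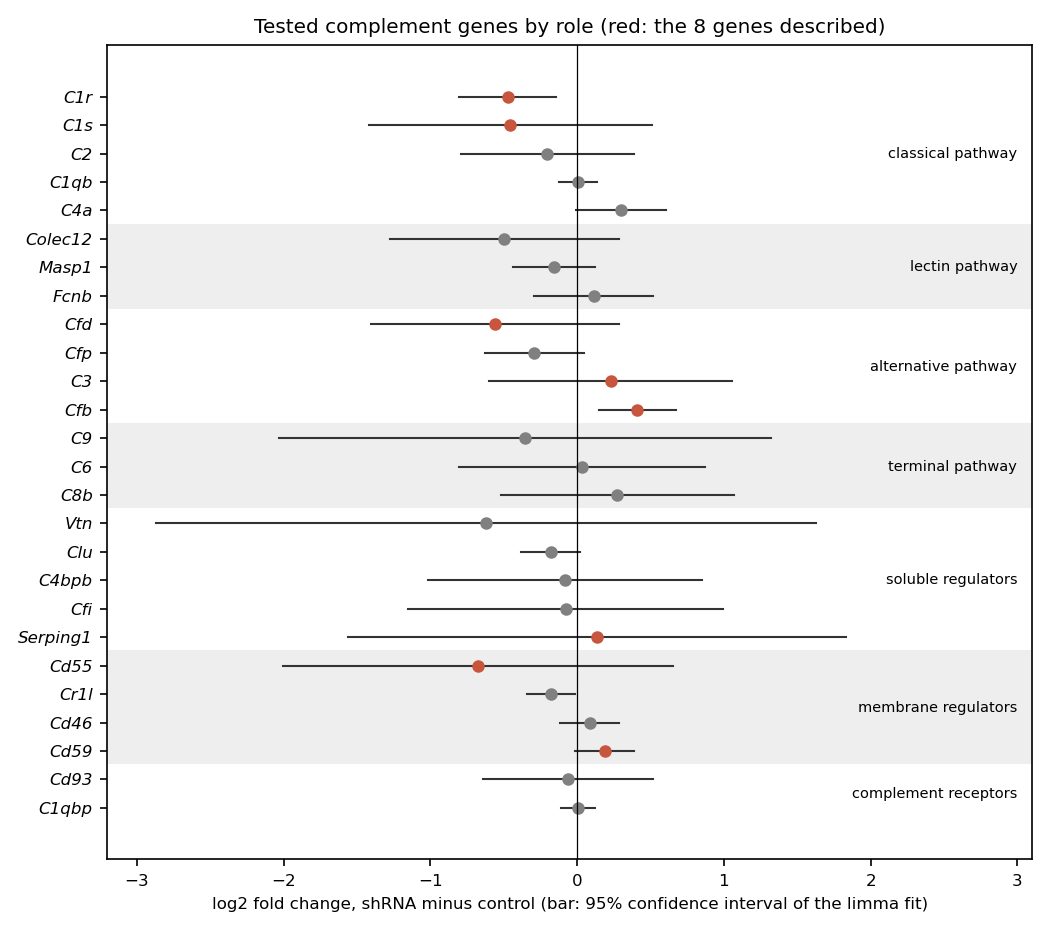
Log2 fold change, shRNA minus control (horizontal axis, with the 95% confidence interval of the limma fit), of the 26 tested complement genes, grouped by role, with the 8 members in red. The widest intervals are those of Vtn, Serping1 and C9, and none of the genes passed the adjusted test.

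Beside Serping1, 4 soluble regulators were tested, and all 4 had lower means in the shRNA group (47.2% of all features had a higher mean), although at least Cfi and C4bpb among them turned higher with the normexp background (0.27 and 0.20), and none passed. Vtn, which encodes vitronectin and was named after its values were seen to complete the count, had -0.62 ± 0.91. Clusterin (Clu) had -0.18 ± 0.082 with a limma adjusted p of 0.402. Cfi, a protease of C3b and C4b breakdown, and C4bpb, a chain of the C4b-binding protein, had -0.077 ± 0.43 and -0.084 ± 0.38.

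Among the membrane regulators, Cr1l (Crry), the rodent protein that shares the tasks of Cd55 and Cd46, had a lower signal on every shRNA array. Its scaled log2 signals were 0.76, 0.98 and 0.88 in controls and 0.72, 0.70 and 0.67 in the shRNA group, a log2 fold change of -0.18 ± 0.066 (limma adjusted p = 0.323). Cd46 had 0.087 ± 0.082.

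In the classical pathway, C4a, one of the C4 genes, differed by 0.30 ± 0.12 (limma adjusted p = 0.365), with overlapping groups. C4 is encoded by near-identical copies, so this probe may read more than one of them. C1qb, a chain of C1q, had 0.0056 ± 0.053. Its partner chains C1qa and C1qc were well above background on 4 and 1 of 6 arrays and were not tested. In the lectin pathway, the protease gene Masp1 had -0.16 ± 0.11 on its brightest probe and -0.58 ± 0.17 on another (limma adjusted p = 0.235 over all probes). The scavenger collectin gene Colec12 and the ficolin gene Fcnb had -0.50 ± 0.32 and 0.11 ± 0.16.

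Properdin (Cfp), which stabilises the alternative convertase, had -0.29 ± 0.14 (limma adjusted p = 0.409). The terminal components C8b and C9 had 0.27 ± 0.32 and -0.35 ± 0.68. Of 9 receptor genes with a probe, 5 were not well above background on any array and 2 were tested. Those were Cd93 with -0.061 ± 0.23 and C1qbp with 0.0083 ± 0.047.

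C5ar1, the receptor of the fragment C5a, was singled out after its values were seen. The flag was absent on all 3 control arrays (2.98, 3.34 and 2.75 units) and present on 2 of 3 shRNA arrays (23.8, 25.0 and 12.6 units). With each control array set to its lowest signal among probes well above background, the mean scaled shRNA signal was 1.62-fold higher. That mean includes shRNA replicate 3, which lacked the flag. The ratio has no standard error, so it sets no smallest difference. The probe did not pass the filter, and without a filter its limma adjusted p over 26913 features was 0.425.

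Cytokines, their receptors and transcription factors that share inducers with complement genes were followed with a second list of 22 genes, of which 16 were tested. None passed (0% of all features passed), 3 had higher and 13 lower means in the shRNA group, and the median log2 fold change was -0.10, beside -0.0070 and 47.2% higher means over all features. The 3 with the smallest p were the pattern recognition gene Ptx3, with -0.88 ± 0.26 (limma adjusted p = 0.244), the haptoglobin gene Hp, with 0.29 ± 0.10 (adjusted p = 0.307), and the interferon-induced factor gene Irf1, with -0.31 ± 0.11 (adjusted p = 0.316). Ptx3, Irf1 and Cebpd, a C/EBP factor gene, were lower on every shRNA array than on any control array, which is 3 of 16 tested genes beside 11.9% of all features. With the normexp background Ptx3 was -0.31 and Irf1 -0.17. Of the C/EBP factors, Cebpb had -0.068 ± 0.054 and Cebpd -0.35 ± 0.15, with adjusted p of 0.651 and 0.366. The part of these genes in the values of C3, Cfb or C1r was not tested.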

How the data were processed

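The authors deposited scanner output, the linear intensity of each spot. Per the file headers the software was Agilent Feature Extraction 11.0.1.1, where the submitters' processing notes name 11.0.0.1. It subtracts background and corrects trends across the array but does not scale arrays to each other. Control spots and 386 to 513 outlier spots per array were left out, spots were averaged per probe, and log2 values were set relative to each array's 75th percentile. Probes well above background on all 3 arrays of a group were tested (20776), and the brightest stood for its gene, giving 18464 features. RefSeq accessions named 18005 probes, with GRCr8 symbols.

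The limma fit (3.58.1, R 4.3.3; lmFit, eBayes) was tested on simulated data. Slides were inferred from a scan identifier that arrays share in the file headers, and their numbers were assigned here. The number of arrays limits the precision. Replicate numbers did not pair the samples. Alternatives covered scaling, normexp background, filters, probe summary, variance prior, array weights, blocks and single arrays left out. The members and lists were chosen with earlier results of these data known. Beside all members, the text names list genes well above background on all 6 arrays or at an unadjusted p under 0.05, the 3 inducers of smallest p, and, after values were seen, C5ar1, Cebpb, Cebpd, Vtn and the markers given with values other than Col1a1. One gene of the designed complement list was left out of the counts and is not reported here.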

Additional observations from a re-analysis of the deposited data

How the results depend on the processing

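Of the 8 genes, Cfb, Cd55 and Cd59 kept their sign in all 19 alternatives. C1s and Serping1 could not be fitted under the filter on all 6 arrays, and slide 2 alone gives values with no test. The cause of the changes below was not tested. Past the adjusted threshold (0 features in the main setting) were 1 feature with median centring, 6 on slide 1 only, 4333 with array quality weights (1743 higher), and 0 to 3 with an array left out. By another threshold, an unadjusted p under 0.05 with a fold of at least 2, there were 44. At an unadjusted p under 0.05 there were 2611, against 1292 with normexp, 8251 with weights and 1521 to 3292 with an array left out. With the replicate number as a block no feature passed, and Cd55 had a limma adjusted p of 0.371 (SE 0.17). Deviations of same-numbered arrays from their group means had correlations of 0.097, 0.261 and -0.29. So few values cannot settle whether samples were paired.

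With normexp and the 75th percentile, C1s was 0.24, C1r 0.044 and Cfd 0.12, and 7 members were higher. The medians were 0.20 (members) and 0.19 (complement list), beside 0.054 over all features. Masp1 was 0.017, Colec12 0.15, Cfp 0.21, C9 0.18, Cfi 0.27, C4bpb 0.20, Cd93 0.17 and C1qbp -0.039. With quantile scaling added, Cd93 was 0.017 and C1qbp -0.014.

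With array weights, C1s (-1.11), C1r (-0.59), Cfb (0.57), Cfd (-1.07) and Cd59 (0.21) passed (limma adjusted p of 0.0423, 0.0127, 0.0127, 0.0249 and 0.0329), beside 4333 of 18464 features. With these 5, 8 genes of the complement list passed, and 6 of the inducers. Serping1 was -0.58, Fcnb -0.24, Cd46 -0.066, and the medians were -0.58 (members) and -0.20 (inducers), beside -0.034 over all features. These weights rest on control 3 (3.06) and shRNA replicate 3 (6.24) and depend on the order of the features: in reverse order 2113 features and 2 members passed, C1r and Cfb.

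On slide 1 only, Serping1 was -0.12, C4bpb 0.061 and C1qbp -0.0046. On slide 2 only, C1s was 0.047, Cfb 0.56, Cd59 0.026, C1qb -0.012, Masp1 0.069, Fcnb -0.0043, Colec12 0.20, Cfp 0.067, C8b -0.037, C9 0.060 and Cfi 0.23.

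With an array left out, C1s lay between -0.80 and -0.11, Cfd between -0.89 and -0.33, C3 between -0.11 and 0.46 and Serping1 between -0.53 and 0.61. The number of higher members was 2 to 4, and their median -0.35 to 0.032. The median of the complement list was -0.25 to 0.033 and that of the inducers -0.19 to -0.053. In the complement list 0 to 1 gene passed. That one, C5ar1 without shRNA replicate 3, entered the test only through the shRNA arrays on which it is high, so its pass is no support. C1qb was -0.033 to 0.037, Cfi -0.45 to 0.16, C4bpb -0.43 to 0.26, Cd93 -0.25 to 0.11 and C1qbp -0.018 to 0.037. Limma adjusted p over the alternatives ranged from 0.0127 to 0.939 for C1r and from 0.0127 to 0.689 for Cfb.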
